A study of Mus musculus with 9 samples.

Results

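The 6 libraries from Twist1+/- coronal sutures were compared as 1 genotype with the 3 wild-type (WT) libraries, out of 9 in all, to ask which genes differed with genotype whether or not the suture had been operated on. All mice were C57BL/6 and were sampled at 7 months of age. Libraries were placed by their sample titles: WT was unoperated, MUT was Twist1+/- and unoperated, and REG was Twist1+/- with a suture regeneration surgery at 1 month of age, with 3 libraries each. No wild-type suture was operated on, so REG differed from WT by genotype and surgery together. The labels do not say how the mutant allele was made, which part of Twist1 it lacks, whether animals were pooled or whether each library came from a separate animal, so p-values here measure only a spread among libraries, which may be technical. The series text also mentions a time of 1 week after induction, which the sample labels do not explain.

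Twist1 encodes a basic helix-loop-helix transcription factor that pairs with E proteins and binds E-boxes, the short DNA motif CANNTG. In the coronal suture, where the frontal bone meets the parietal bone, it acts in the mesenchyme that keeps the growing bone fronts apart. Loss of 1 copy is the usual cause of Saethre-Chotzen syndrome, in which this suture closes early, and ephrins and Eph receptors at the bone-suture boundary are among the genes known to act downstream of it.

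Several libraries stood apart from their group. Estimated reads on genes were 16356391 to 20019712 in WT, 2945636 to 10894209 in MUT and 18276494 to 39377876 in REG. Background, estimated from olfactory and vomeronasal receptor genes, took 7.94% to 23.4% of the reads in MUT and 0.514% to 0.875% in the other 6 libraries. REG replicate 3 had Spearman correlations across genes of 0.91 to 0.95 with the WT libraries, and REG replicates 1 and 2 of 0.70 to 0.82. The library names of REG replicates 1 and 2 end in numbers that the names of WT replicates 2 and 3 also carry. REG replicate 3 carries a number that no other library has. The labels do not say what these numbers mean. Which libraries were processed or sequenced together is not stated, so no comparison within a batch could be made. The part of a batch in the difference between REG replicate 3 and the other REG libraries was not tested. The summed level of the suture mesenchyme markers was 470 to 832 in WT, 211 to 565 in MUT and 681 to 945 in REG. Ctsk, also a listed osteoclast gene, made up 23.3% to 32.4% of the WT sums and 40.7% to 71.0% of the REG sums. The other 23 markers summed to 360 to 563 in WT and 274 to 403 in REG. In MUT the largest part was that of Zic1, at 25.7% to 48.5%, and the 23 markers without Zic1 summed to 142 to 349. The summed level of the osteoblast markers was 27580 to 49254 in WT, 1515 to 16284 in MUT and 15366 to 36936 in REG. Col1a1 alone made up 46.5% to 61.8% of these osteoblast sums. Xist, expressed from the inactive X chromosome of females, and the Y-linked Ddx3y were both above the lowest value in all 9 libraries.

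Values are the authors' deposited upper-quartile scaled gene counts. The genotype change is the mean of MUT and REG minus WT on the log2(value + 0.367) scale, which understates the change of low genes. A gene was called where its Benjamini-Hochberg adjusted p in limma was under 0.05 and both MUT and REG lay on the same side of WT. Of 29107 genes tested, 1116 (3.83%) were called, 857 (2.94%) lower and 259 (0.89%) higher in Twist1+/-. The test alone passed 1236 genes (4.25%), of which 120 had MUT and REG on opposite sides of WT and are not counted. MUT and REG both lay below WT in 9417 genes (32.4%) and both above it in 6979 (24.0%), called or not. With total-read scaling the split turned to 191 lower and 1722 higher, and all genes together then had a median change of 0.64 against 0.02. Background subtraction, a run that also scaled each library to its total reads, gave 77 lower and 344 higher. Quantile scaling gave 373 lower and 455 higher.

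The 857 lower genes had a median log2 change of −2.80 in MUT and −1.06 in REG, against medians of 0.18 and −0.18 over all genes tested. Their change was larger in MUT for 811 of them, and REG vs MUT passed the test for 604 (70.5%). That comparison called 7221 genes lower (24.8%) and 3432 higher (11.8%) in all. In 493 of the 857 (1.69% of all genes tested) all 6 Twist1+/- libraries lay below all 3 WT libraries, which was so for 1258 genes (4.32%) called or not. The 259 higher genes had medians of 3.38 in MUT and 0.34 in REG, 251 of them (96.9%) differed between REG and MUT, and 25 (0.0859% of all genes tested) had no overlap, as had 224 genes (0.77%) above WT called or not. By their biotype 85.2% of the lower genes were protein coding and 49.8% of the higher ones, against 64.4% of all genes tested.

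In REG vs WT alone 0 genes (0.0%) passed the test (limma, lowest adjusted p 0.350). In that comparison 2755 genes (9.47%) had an unadjusted p under 0.05, among them 473 of the 857 lower and 17 of the 259 higher genes. The authors' deposited table likewise lists 0 genes at an FDR under 0.05 for WT vs REG (0.0%, lowest 0.418). MUT vs WT called 4261 genes lower (14.6%) and 5964 higher (20.5%). Requiring each group to pass on its own, by the larger of both p-values, called 0 genes after adjustment, with 1047 (3.6%) under 0.05 unadjusted. MUT vs WT and REG vs WT share the WT libraries, so their values are given side by side only.

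The count rested on single libraries. Without WT replicate 2 or without WT replicate 3 no gene was called (4093 and 4716 with an unadjusted p under 0.05), without WT replicate 1 or MUT replicate 3 it was 21 each, and without REG replicate 1 it was 157. It was 498 without MUT replicate 1 and 4388 (3047 lower, 1341 higher) without REG replicate 3. In REG vs WT without REG replicate 3, 1616 genes were called (1203 lower, 413 higher), among them 262 of the 857 lower and 13 of the 259 higher genes. Pooling MUT and REG into 1 group, so that their difference counts as spread, called 0 genes (3298 unadjusted).

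**Figure D1:**
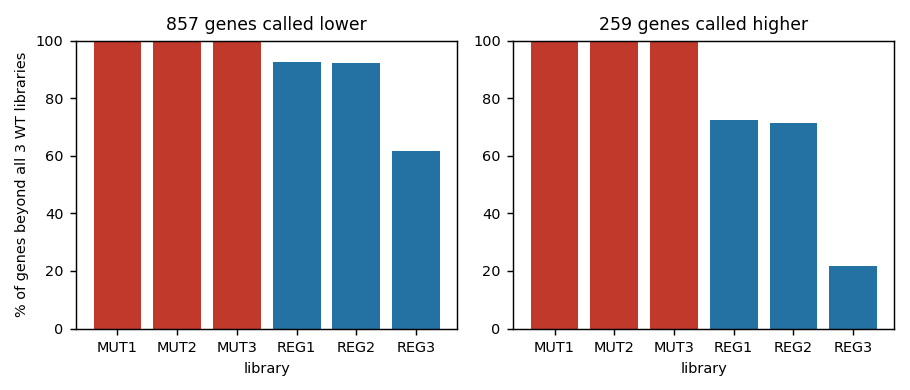
Share (%) of the 857 genes called lower (left) and the 259 called higher (right) whose value in each Twist1+/- library (x axis) lay beyond all 3 WT libraries, in the direction of the call. MUT libraries stand at or near 100% in both panels, REG replicates 1 and 2 at 92.6% and 92.2% of the lower and 72.6% and 71.4% of the higher genes, and REG replicate 3 at 61.6% and 21.6%.

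The 3 REG libraries did not follow the called genes alike. REG replicates 1 and 2 lay below all WT libraries in 92.6% and 92.2% of the lower genes, REG replicate 3 in 61.6%. For the higher genes the shares were 72.6%, 71.4% and 21.6%. These shares describe genes that the same libraries helped to choose.

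Twist1 (chromosome 12, 33957671 to 33959829, GRCm38, plus strand) had deposited values of 16.2, 23.3 and 23.1 in WT against 0.987, 8.08 and 0.548 in MUT, and 3.76, 9.19 and 12.2 in REG. All 6 Twist1+/- libraries lay below all 3 WT libraries, and MUT replicate 2 lay within the range of REG. Its genotype change of −2.33 ± 0.66 (SE of the fit) had an adjusted p of 0.0713 and was not called. An exact two-sided permutation test of the 6 against 3 libraries on Twist1 alone gave p = 0.0238, the smallest that its 84 splits allow. The change was −3.26 ± 0.76 in MUT and −1.40 ± 0.76 in REG (adjusted p 0.0109 and 0.567). Without MUT replicate 2 the genotype change was called (−2.82, adjusted p 0.0302), as it was without REG replicate 3 (−2.50, adjusted p 0.0387).

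**Figure D2:**
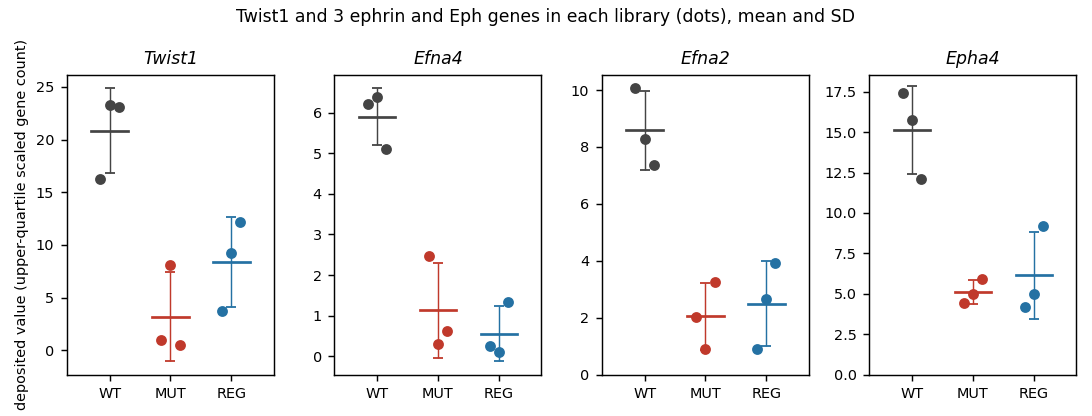
Deposited values (upper-quartile scaled gene counts, y axis) of Twist1, Efna4, Efna2 and Epha4 in each library of WT, MUT and REG (x axis); dots are libraries, horizontal lines the mean and bars the SD (n = 3). In each panel all 6 Twist1+/- libraries lie below all 3 WT libraries, and for Efna4, Efna2 and Epha4 the MUT and REG dots cover overlapping ranges.

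The ephrin genes Efna4 and Efna2 and the receptor gene Epha4 were lower in both Twist1+/- groups by similar amounts, which did not hold for every ephrin and Eph gene tested. Efna4, which encodes the ephrin-A4 ligand, had values of 6.22, 6.395 and 5.10 in WT against 2.48, 0.299 and 0.623 in MUT, and 0.242, 0.0903 and 1.34 in REG. No Twist1+/- library reached WT, and the lowest values were those of REG replicates 1 and 2. Efna4 fell by 2.34 in MUT and by 3.00 in REG on the log2 scale (genotype change −2.67 ± 0.53, adjusted p 0.0333). REG vs MUT did not pass the test for it (adjusted p 0.428).

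Efna2, which encodes another ephrin-A ligand, stood at 10.1, 8.29 and 7.38 in WT against 2.03, 0.896 and 3.25 in MUT, and 0.922, 2.65 and 3.92 in REG. Epha4, the receptor that binds both ligands, stood at 17.4, 15.8 and 12.1 in WT against 4.44, 4.96 and 5.93 in MUT, and 4.21, 4.98 and 9.22 in REG. Neither gene overlapped between genotypes, and REG replicate 3 was the highest Twist1+/- library for both. Efna2 changed by −1.90 ± 0.45 (adjusted p 0.0475) and Epha4 by −1.40 ± 0.32 (adjusted p 0.0449). The 2 groups were close in both, at −2.00 and −1.80 for Efna2 and −1.49 and −1.31 for Epha4. Efna2 and Epha4 were chosen for this account after their values were seen.

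The calls of these 3 genes ended with total-read scaling (adjusted p 0.0652, 0.155 and 0.204 for Efna4, Efna2 and Epha4) and with background subtraction (0.105, 0.248 and 0.229), with lower values in Twist1+/- under both. Efna2 and Epha4 also lost their calls with quantile scaling (0.0737 and 0.119) and without MUT replicate 2 (0.0646 and 0.0694). Efna4 kept its call in these runs (0.0339 and 0.0391). With REG replicate 3 as the only REG library the changes shrank to −2.11, −1.53 and −1.08 for Efna4, Efna2 and Epha4. Of the 21 tested genes of the list of Notch and ephrin signalling, 6 were called lower and 0 higher, against 2.94% and 0.89% of all genes. In a separate fit with a 10 times stricter filter on low values 12.3% of genes were called lower. The list median was −1.27 in MUT and −0.79 in REG. Besides Efna4, Efna2 and Epha4 the called genes of the list were Epha2, Notch2 and Jag1, a Notch ligand. Of the 11 ephrin and Eph genes in this list 4 were called. Epha2 changed by −2.36 in MUT and −1.19 in REG. Among those not called, the values were −2.08 and −2.20 for Efnb2, −2.30 and −0.44 for Efna5, −1.27 and −0.49 for Efnb1, −2.42 and −1.07 for Ephb4, and −1.06 and −0.90 for Ephb3. Ephb2 (0.90 and −0.49) and Epha7 (0.98 and 0.51) were not lower in MUT. Jag1 changed by −2.59 in MUT and −0.29 in REG, where its values of 20.1, 22.1 and 21.0 lay inside the WT range of 18.2 to 31.9.

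The 250 bases before the first listed RefSeq start of 5 lower genes are shown because Twist1 acts through E-boxes: those of Efna4, Efna2 and Epha4, which hold no CANNTG, and those of Xylt2 and Esrrg, the only 2 of 7 matched promoters among the 12 leading lower genes (described next) that hold one. Sequences are from RefSeq (GRCm38.p6), 5′ to 3′ on the gene's strand, with any CANNTG in capitals. They lie at chr3:89338029-89338278 (minus strand, Efna4), chr10:80179232-80179481 (plus, Efna2), chr1:77515089-77515338 (minus, Epha4), chr11:94677494-94677743 (minus, Xylt2) and chr1:187608756-187609005 (plus, Esrrg). The starts of Xylt2 and Esrrg in the authors' deposited gene table lie further upstream, so 22 bases of the Xylt2 window and 215 of the Esrrg window lie inside the gene as that table has it.
Efna4 promoter: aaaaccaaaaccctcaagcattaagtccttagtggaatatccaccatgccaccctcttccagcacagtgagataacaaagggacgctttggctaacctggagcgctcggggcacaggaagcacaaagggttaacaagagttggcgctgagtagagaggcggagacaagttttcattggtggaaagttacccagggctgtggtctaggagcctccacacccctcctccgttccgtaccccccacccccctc
Efna2 promoter: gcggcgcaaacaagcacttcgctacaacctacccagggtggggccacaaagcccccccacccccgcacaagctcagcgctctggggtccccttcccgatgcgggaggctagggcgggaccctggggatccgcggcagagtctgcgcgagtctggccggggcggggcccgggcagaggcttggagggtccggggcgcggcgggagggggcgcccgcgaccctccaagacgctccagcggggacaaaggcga
Epha4 promoter: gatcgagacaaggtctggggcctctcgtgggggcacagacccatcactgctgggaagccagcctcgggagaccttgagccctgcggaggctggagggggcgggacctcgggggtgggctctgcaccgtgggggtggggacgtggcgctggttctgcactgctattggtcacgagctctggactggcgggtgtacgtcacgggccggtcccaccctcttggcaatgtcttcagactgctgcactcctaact
Xylt2 promoter: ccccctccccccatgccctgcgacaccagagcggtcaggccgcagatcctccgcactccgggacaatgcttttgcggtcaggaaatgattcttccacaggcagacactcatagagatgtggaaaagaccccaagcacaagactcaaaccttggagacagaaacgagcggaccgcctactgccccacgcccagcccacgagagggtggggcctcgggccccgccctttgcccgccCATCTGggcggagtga
Esrrg promoter: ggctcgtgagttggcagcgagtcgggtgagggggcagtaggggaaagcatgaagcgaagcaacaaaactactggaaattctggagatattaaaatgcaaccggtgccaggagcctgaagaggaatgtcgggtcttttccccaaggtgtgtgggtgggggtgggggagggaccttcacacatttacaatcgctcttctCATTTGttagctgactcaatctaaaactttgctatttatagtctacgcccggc

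The motif stands as CATCTG at −16 from the RefSeq start of Xylt2 and as CATTTG at −53 from that of Esrrg, both inside the gene by the deposited table. CANNTG, which reads the same on both strands, was present in the 250-base window of 306 of the 592 lower genes with a RefSeq entry (51.7%) and of 97 of the 132 higher genes (73.5%). Its share was 61.8% over the 16614 tested genes with an entry and 66.0% over all 27025 promoters. CATCTG on either strand, a form of CANNTG, was present in 9.12% of the lower, 15.9% of the higher and 12.2% of the tested promoters. A match says only that the letters are in the window, and binding was not measured.

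Among called genes with no overlap, the 12 lower and the 5 higher genes with the largest smaller change (the smaller in size of MUT vs WT and REG vs WT) were named by rule. Only 5 higher genes met it, and the lower genes at ranks 12 and 13 had smaller changes of 2.599 and 2.518. This rule favours genes far from WT in both groups, so the closeness of MUT and REG in them follows from the choice.

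**Figure D3:**
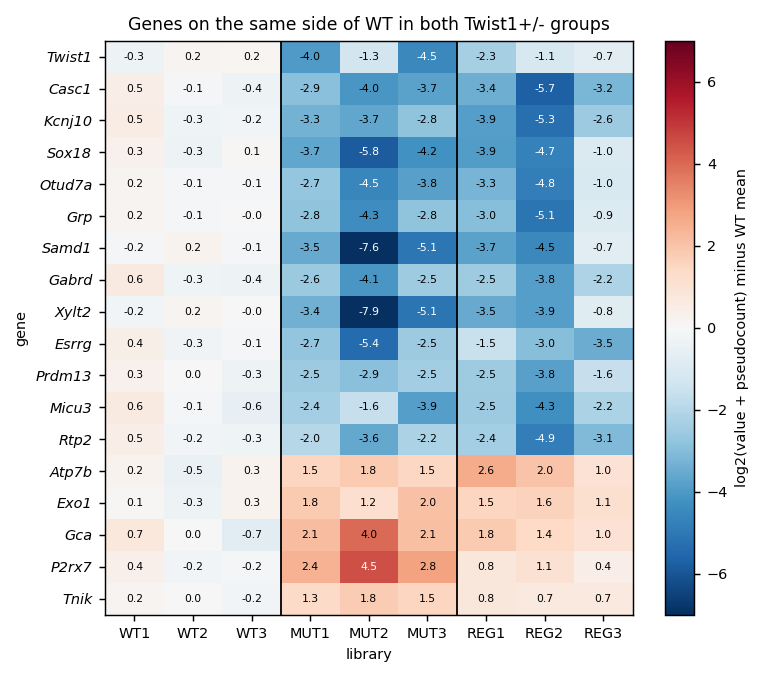
Difference from the WT mean on the log2(value + 0.367) scale (colour and printed number) for Twist1, the 12 lower and the 5 higher genes named by rule (rows) in each of the 9 libraries (columns). All 6 Twist1+/- columns are blue for the lower and red for the higher genes, and the column of REG replicate 3 is palest for Sox18, Otud7a, Grp, Samd1 and Xylt2.

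Casc1, an axonemal dynein-associated gene, led the list, with 308, 207 and 170 in WT against 28.4, 13.0 and 16.2 in MUT, and 20.03, 3.85 and 23.9 in REG. Kcnj10, an inwardly rectifying potassium channel of glia and other cells, had 85.2, 47.6 and 52.1 in WT against 5.76, 4.37 and 8.17 in MUT, and 3.77, 1.16 and 9.78 in REG. Both were far below WT in all 6 libraries, REG replicate 3 included. Casc1 fell by 3.85 ± 0.55 and Kcnj10 by 3.58 ± 0.54 (adjusted p 0.0233 each), slightly more in REG than in MUT. Both stayed called under all 4 other scalings, while every other lower gene named by rule lost its call under at least 1 of them. With REG replicate 3 as the only REG library Casc1 changed by −3.38 and Kcnj10 by −2.91.

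Gabrd, the delta subunit of the GABA-A receptor, had 67.7, 35.5 and 33.2 in WT against 2.18 to 7.28 in MUT and 2.65 to 9.20 in REG. Prdm13, a transcription factor of neural development, had 25.3, 20.1 and 15.9 in WT against 2.35 to 3.37 in MUT and 1.11 to 6.42 in REG. Its change was −2.64 in MUT and −2.63 in REG (genotype −2.63 ± 0.45, adjusted p 0.0264). Micu3, a regulator of the mitochondrial calcium uniporter, changed by −2.61 and −3.01. For Rtp2, a chaperone of odorant receptors, the changes were −2.60 and −3.45. These 4 genes thus had changes in REG within 1 unit of those in MUT, and low libraries from both groups.

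Sox18 encodes a transcription factor of endothelial and lymphatic vessels. It stood at 40.9, 26.6 and 35.2 in WT against 2.35, 0.236 and 1.44 in MUT, and 1.94, 0.931 and 16.7 in REG. REG replicate 3 lay between WT and the other 5 Twist1+/- libraries. The genotype change was −3.88 ± 0.76 (adjusted p 0.0323). No member of the 15-gene endothelial list was called, with 11 of the 15 lower in both groups and a list median of −1.04 in MUT and −0.39 in REG.

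Samd1, a protein that binds CpG islands, and Xylt2, which starts glycosaminoglycan chains on proteoglycans, were the most abundant of the 12 genes. Samd1 had 1737, 2293 and 1837 in WT against 168, 9.73 and 57.0 in MUT, and 145, 86.2 and 1163 in REG. Xylt2 had 859, 1140 and 968 in WT against 94.0, 3.64 and 27.8 in MUT, and 84.9, 67.3 and 546 in REG. In both, REG replicate 3 was closer to WT than to the other REG libraries, and MUT replicate 2 was lowest. Their genotype changes were −4.19 ± 0.94 and −4.11 ± 0.93 (adjusted p 0.0412 and 0.0424), and −3.07 and −3.16 with REG replicate 3 as the only REG library. Their calls were lost with quantile scaling (adjusted p 0.152 and 0.130), total-read scaling (0.0645 and 0.0702) and background subtraction (0.105 and 0.122). Otud7a, a deubiquitinase gene, and Grp, which encodes gastrin-releasing peptide, showed the same order of libraries in REG, at 13.8, 4.42 and 65.4 and at 1.66, 0.0913 and 7.88. Their WT libraries stood at 127 to 154 and 14.1 to 17.5.

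Esrrg, an orphan nuclear receptor of oxidative metabolism, had 262, 166 and 181 in WT against 29.4, 4.39 and 34.2 in MUT, and 68.0, 24.9 and 17.3 in REG. Here REG replicate 3 was the lowest REG library. Its changes were −3.55 ± 0.76 in MUT and −2.67 ± 0.76 in REG (genotype adjusted p 0.0370).

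Of the 5 higher genes, Atp7b, a copper-transporting ATPase, had 1.21, 0.596 and 1.24 in WT against 3.49, 4.39 and 3.34 in MUT, and 7.73, 5.09 and 2.35 in REG. Exo1, an exonuclease of DNA mismatch repair, had 1.48, 1.03 and 1.76 in WT against 5.80, 3.57 and 6.91 in MUT, and 4.71, 5.01 and 3.44 in REG. These 2 genes rose by similar amounts in both groups, by 1.60 and 1.87 for Atp7b and by 1.67 and 1.42 for Exo1 (adjusted p of the genotype change 0.0406 and 0.0354). Exo1 has a known role in dividing cells, and of the 20 genes of the cell cycle list 13 were higher in both groups and 0 were called (median 0.12 in MUT, 0.84 in REG).

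P2rx7, an ATP-gated ion channel of bone and immune cells, stood at 5.23, 3.44 and 3.53 in WT against 23.4, 101 and 30.9 in MUT, and 7.32, 8.80 and 5.57 in REG. It was the only gene of the 5 for which REG and MUT differed (adjusted p 0.00666), with a change of 3.27 in MUT and 0.78 in REG. Gca, a calcium-binding protein of neutrophils, changed by 2.73 and 1.40, and Tnik, a kinase of Wnt signalling, by 1.54 and 0.70. Atp7b, Gca and Tnik lost their calls with trimmed-mean scaling (adjusted p 0.0558, 0.0524 and 0.067). Atp7b and Exo1 lost theirs after background subtraction (0.0534 and 0.0638).

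**Figure D4:**
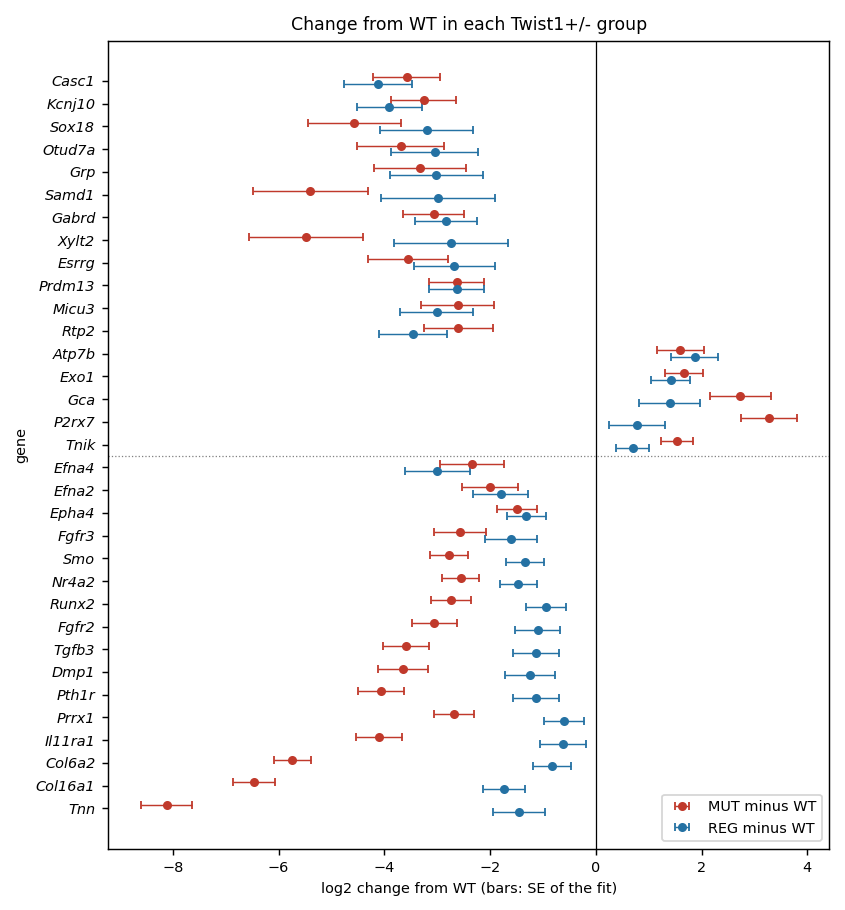
Log2 change from WT (x axis, bars are the SE of the fit) in MUT (red) and REG (blue) for the 17 genes named by rule (above the dotted line) and for 16 called members of gene lists (below it). Of the 12 lower genes named by rule 9 have both points within 1 unit, while Sox18, Samd1 and Xylt2 lie lower in MUT; below the dotted line the points are closest for Efna4, Efna2 and Epha4 and far apart for Tnn, at −8.12 in MUT and −1.45 in REG.

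Genes whose variants cause craniosynostosis were lower in Twist1+/- as a list, with larger changes in MUT than in REG. Of the 23 tested members of this list 11 were called lower and 0 higher, against 2.94% and 0.89% of all genes, and 20 were lower in both groups. Lower calls were more frequent among abundant genes: with a 10 times stricter filter on low values 12.3% of 11449 genes were called lower (1408) and 2.76% higher, against 15 and 0 of the 22 members left. The list median was −2.18 in MUT and −0.72 in REG, and REG vs MUT passed the test for 15 of the 23. The called members, completed after their values were seen, were the FGF receptors Fgfr2 and Fgfr3, the transcription factors Runx2, Gli3, Erf and Alx4, the signalling modulators Ski and Smad6, the cytokine receptor Il11ra1, the phosphatase Alpl and the ligand Efna4. Without REG replicate 3 the count was 16 of 23, with total-read scaling 1, and after background subtraction 0, with list medians of −1.48, −0.63 and −0.89. The shares of 2.94% and 0.89% over all genes apply to the counts of the other lists as well. The 12.3% comes from a separate fit of 11449 genes with its own adjustment, where this list had 15 calls instead of 11. It is therefore not a like share for list counts of the main fit.

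Fgfr2, a receptor gene whose activating variants close sutures early, had 63.7, 117 and 95.8 in WT against 10.5, 10.5 and 10.3 in MUT, and 41.3, 25.1 and 69.2 in REG. REG replicate 3 overlapped WT and the MUT libraries agreed closely (change −3.05 in MUT, −1.10 in REG, genotype adjusted p 0.0276). The annotated span of Fgfr2 (chromosome 7, 130162451 to 133123350) covers that of Htra1, so reads of overlapping genes may have been shared. Fgfr3 had 13.1, 27.3 and 23.2 in WT, 2.95 to 3.21 in MUT, and 5.68, 3.42 and 13.2 in REG. Among the called members it was the only one besides Efna4 for which REG and MUT did not differ by the test (adjusted p 0.150).

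Runx2, the master transcription factor of osteoblasts, had 54.3, 98.3 and 81.5 in WT against 11.6, 12.4 and 9.34 in MUT, and 35.1, 29.6 and 57.7 in REG. Only REG replicate 3 overlapped WT, and the change was −2.74 in MUT and −0.95 in REG. In Erf and Alpl the REG change was −0.12 and −0.23, with REG libraries that overlapped WT, so that their calls rest on MUT. Il11ra1 changed by −4.10 and −0.62. It has near-identical copies, and reads could have been split between them.

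In the BMP and TGF-beta list 7 of 26 members were called lower and 0 higher (median −1.81 in MUT, −0.62 in REG). Nog, which encodes the BMP antagonist noggin, changed by −2.22 and −1.91, the closest pair in this list's calls. Tgfb3, a ligand, had 23.1, 49.0 and 42.9 in WT against 2.59, 2.71 and 2.74 in MUT, and 21.1, 9.34 and 22.5 in REG, with no overlap (adjusted p 0.0233). The other called members were Tgfb2, the co-receptor Tgfbr3, the latent TGF-beta binding protein Ltbp2 and the inhibitory factors Smad6 and Smad7.

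In the hedgehog list 3 of 14 were called lower, against 2.94% of all genes, or 12.3% in the separate fit with the stricter filter. The list medians were −1.05 in MUT and −0.88 in REG. Smo, the signal transducer of the pathway, had 57.4, 58.4 and 55.7 in WT against 8.90, 10.2 and 5.71 in MUT, and 16.6, 21.8 and 30.9 in REG. Its WT libraries were nearly equal and every Twist1+/- library was well below them (−2.77 and −1.34, genotype −2.06 ± 0.31, adjusted p 0.0233). The co-receptor Gas1 and the transcription factor Gli3 were the others. Gli3 did not overlap, at 18.6 to 23.3 in WT and 14.9 to 16.6 in REG.

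In the FGF list 4 of 19 tested members were called lower (Fgfr2, Fgfr3, Fgfrl1 and the feedback inhibitor Spred1), with medians of −1.45 and −0.42. In the Wnt list 5 of 28 were called lower: the ligands Wnt5b and Wnt7b, the receptor Fzd1 and the secreted inhibitors Dkk3 and Sfrp2. Of all genes 2.94% were called lower, or 12.3% in the separate fit with the stricter filter. Wnt7b had 160, 181 and 181 in WT, 5.38 to 12.5 in MUT, and 34.0, 26.3 and 142 in REG. REG replicate 3 was thus near WT and the other REG libraries far below (adjusted p 0.0249). The Wnt list as a whole had medians of −0.67 and −0.56, which turned to 0.19 for the genotype change with total-read scaling. In the insulin-like growth factor list 4 of 16 were called lower (Igfbp5, Igfbp2, the binding-protein protease Pappa and the imprinted H19), with Igfbp2 at −1.50 in MUT and −1.58 in REG.

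The list of Twist factors, their partners and inhibitors (11 genes) had medians of −1.07 in MUT and −0.76 in REG. Beside 2.94% of all genes called lower (12.3% in the separate fit with the stricter filter), Id1 and Id3 were called lower here and none higher. Both encode helix-loop-helix proteins that bind E proteins but not DNA. Id1 had 5.05, 11.6 and 9.61 in WT, 0.573 to 1.07 in MUT, and 1.88, 4.98 and 5.91 in REG. Id3 changed by −2.72 in MUT and −0.23 in REG, where it stood at 22.2 to 25.7 against 22.7 to 33.2 in WT. The median genotype change of the list, −0.76, became 0.04 with total-read scaling.

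The 3 genes with the smallest genotype p, Col16a1, Tnn and Col6a2, were genes of the extracellular matrix, and their change was larger in MUT than in REG. In the fibrillar matrix list 8 of 25 members were called lower (median −3.15 in MUT, −0.61 in REG), in the matricellular and small leucine-rich proteoglycan list 8 of 22 (−3.21 and −0.45), and in the list of matrix proteases and their inhibitors 6 of 20 (−2.90 and −0.57). No member of the 3 lists was called higher. Background-subtracted counts were 6, 4 and 3, and all 3 medians stayed below 0 under the 4 other scalings.

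Col16a1, a fibril-associated collagen chain, had 471, 935 and 566 in WT against 5.57, 7.29 and 7.58 in MUT, and 179, 142 and 263 in REG. All 3 groups were apart, and the change of −6.47 ± 0.39 in MUT and −1.74 ± 0.39 in REG gave a genotype adjusted p of 0.00667. Tnn, which encodes tenascin-W of bone-forming sites, had 418, 1234 and 932 in WT, 1.73 to 3.73 in MUT, and 318, 191 and 386 in REG, again without overlap. Col6a2, a collagen VI chain, had 346, 652 and 614 in WT, 8.48 to 9.87 in MUT, and 251, 279 and 357 in REG. There REG replicate 3 overlapped WT replicate 1. Aspn, the proteoglycan asporin, changed by −6.39 and −0.87. These 4 genes stayed called under each of the 4 other scalings and without WT replicate 1. They lost their calls, as all genes did, without WT replicate 2, without WT replicate 3 and with MUT and REG pooled into 1 group. With REG replicate 3 as the only REG library Col16a1, Tnn, Col6a2 and Aspn changed by −3.86, −4.57, −3.14 and −3.51. REG vs MUT passed for each of them, with adjusted p from 0.000174 to 0.000332.

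Further matrix genes with a call in this direction were Col3a1, Col5a1, Col6a1, Col6a3, Loxl2 and Bmp1, the matricellular genes Thbs1, Thbs2 and Ccn2, and the proteoglycans Bgn, Fmod and Prelp. Among proteases and inhibitors they were Mmp2, Adamts1, Adamts12, Htra1, Timp2 and Timp3. Their changes in REG ran from −1.62 for Adamts1 to −0.20 for Prelp. Fmod was also the only call among the 14 tendon and ligament genes (list medians −2.11 and −0.36).

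**Figure D5:**
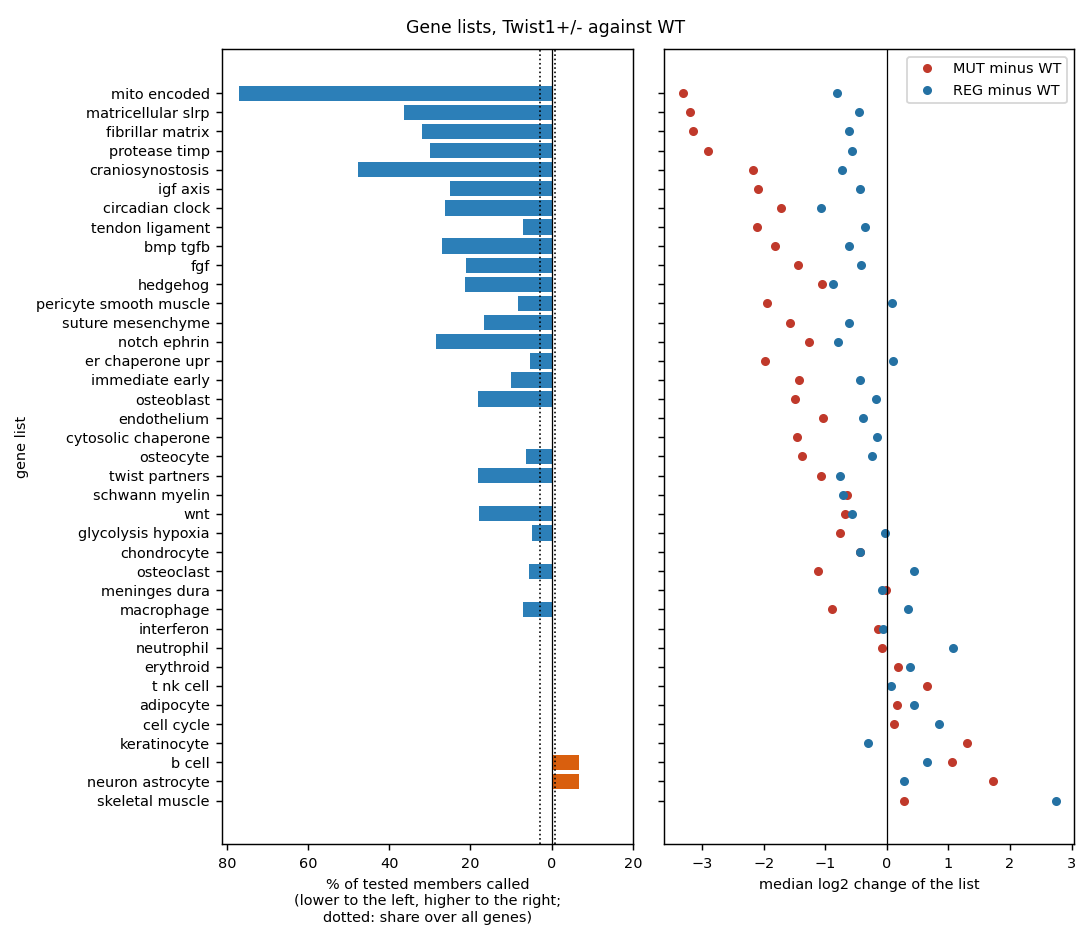
Left, share (%) of the tested members of each gene list called lower (blue, to the left) or higher (orange, to the right) for genotype, with dotted lines at 2.94% and 0.89%, the shares over all genes; right, median log2 change of each list in MUT (red) and REG (blue). Lists are ordered by their median genotype change, from mitochondrially encoded genes (mito encoded) and matricellular genes with small leucine-rich proteoglycans (matricellular slrp) at the top to skeletal muscle at the bottom; REG medians lie nearer 0 than MUT medians for most lists in the upper part.

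In the suture mesenchyme list 4 of 24 markers were called lower (Prrx1, Ddr2, Alx4 and Pdgfrb) and 0 higher. The share of all genes called lower was 2.94%, or 12.3% in the separate fit with the stricter filter. The list medians were −1.58 and −0.61. Of the 24 markers 13 were lower in both groups, 0 were higher in both, and 11 had MUT and REG on opposite sides of WT. Among the last, Zic1, Grem1 and Tfap2b changed by 2.85, 2.78 and 1.48 in MUT. In REG they changed by −0.72, −0.85 and −0.23. Prrx1, a transcription factor of skeletal stem and progenitor cells, had 49.0, 84.0 and 85.8 in WT against 11.97, 13.2 and 7.74 in MUT, and 41.3, 43.3 and 56.4 in REG. Of its REG libraries 2 lay just below WT and 1 inside its range (change −0.60). In these bulk libraries fewer cells of a type and less RNA per cell cannot be told apart.

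In the osteoblast list 4 of 22 were called lower (Pth1r, Cdh11, Runx2 and Alpl), with medians of −1.48 and −0.18. This stands beside 2.94% of all genes called lower, or 12.3% in the separate fit with the stricter filter. Pth1r, the receptor of parathyroid hormone, had 113, 144 and 137 in WT against 11.9, 8.41 and 4.08 in MUT, and 42.9, 59.6 and 82.2 in REG. It did not overlap between genotypes (−4.07 and −1.13, adjusted p 0.0233). Dmp1, a mineralization protein of osteocytes, was the only call of 16 osteocyte genes, with 358, 383 and 306 in WT, 19.5 to 50.8 in MUT, and 109, 114 and 248 in REG. Nfatc1 was the only call among 18 osteoclast genes and changed by −2.48 in MUT and −0.18 in REG. The osteoclast list median was −1.12 in MUT and 0.43 in REG, and its genotype value of −0.27 turned to 0.09 and above with quantile scaling, total-read scaling or background subtraction. No chondrocyte gene of 17 tested was called (medians −0.44 in both groups).

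Mitochondrially encoded genes had the highest share of calls of the 38 lists, with 10 of 13 lower and 0 higher (medians −3.32 in MUT and −0.81 in REG). Mt-Co1, a subunit of cytochrome oxidase, had 1137 to 1843 in WT, 91.5 to 199 in MUT, and 569, 893 and 1106 in REG, with no overlap. Mt-Nd5, a complex I subunit, had 674 to 1253 in WT, 57.9 to 126 in MUT, and 225, 373 and 694 in REG, and REG replicate 3 overlapped WT. All genes with an mt- name, a wider set than these 13, took 9.96% to 13.5% of reads in WT. In MUT they took 2.01% to 4.78% and in REG 9.70% to 15.5%, so on that wider share REG overlapped WT. The summed level of the 13 listed genes was 5031 to 8298 in WT, 358 to 1069 in MUT and 2377 to 4676 in REG, below WT in both groups. With quantile scaling 1 of the 13 was called and after background subtraction 0.

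In the circadian clock list 5 of 19 were called lower (Per1, Nr1d2, Dbp, Tef and Rora), with medians of −1.72 in MUT and −1.07 in REG. Tef, a clock-output transcription factor, had 40.6, 43.4 and 37.9 in WT, 3.63 to 5.40 in MUT, and 15.7, 5.22 and 35.05 in REG. The REG libraries were spread over nearly the whole distance from MUT to WT. The time of day of sampling is not given in the sources used here. Of 20 immediate early genes Jun and Nr4a2 were called lower. Nr4a2, an orphan nuclear receptor, had 17.6, 18.9 and 13.9 in WT, 1.70 to 3.24 in MUT, and 6.69, 5.29 and 5.49 in REG, and the REG libraries were close together and apart from both other groups (−2.56 and −1.47, adjusted p 0.0233).

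Single calls in other lists were the stress transcription factor Xbp1 (−3.03 and −0.13), the pericyte receptor Pdgfrb (−3.50 and −0.41) and the glycolytic enzyme Hk2 (−2.27 and −0.84), all lower. The macrophage list median was −0.89 in MUT and 0.33 in REG, and the summed level of its 14 genes was 243 to 344 in WT, 117 to 220 in MUT and 525 to 872 in REG. Without Lyz2, which made up 56.1% to 75.4% of the REG sums, it was 161 to 225, 61.4 to 82.1 and 215 to 230. Malat1, an abundant nuclear RNA chosen after its values were seen, had 4230, 7151 and 5096 in WT against 307, 332 and 388 in MUT, and 1334, 1145 and 5083 in REG. REG replicate 3 stood inside the WT range and the other REG libraries below it.

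Lists with higher medians had few calls. In the B-cell list 13 of 15 genes were higher in both groups and 1, Pax5, was called (list medians 1.06 in MUT and 0.65 in REG). Pax5, the transcription factor of B-cell identity, had 20.01, 3.74 and 8.33 in WT against 271, 1547 and 363 in MUT, and 60.2, 65.6 and 12.1 in REG. REG replicate 3 lay inside the WT range. The summed level of the B-cell list was 62.8 to 160 in WT, 361 to 1865 in MUT and 127 to 148 in REG, so REG overlapped WT. Pax5 alone made up 75.2% to 83.0% of the MUT sums, and the other 14 genes summed to 54.5 to 140 in WT, 89.5 to 317 in MUT and 61.9 to 131 in REG.

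Rbfox3, a splicing factor of neurons, was the only call among 15 neuron and astrocyte genes and stood at 0.544 to 1.79 in WT, 19.7 to 60.2 in MUT and 0.674 to 2.00 in REG. Its call rests on MUT, whose libraries also had the raised background. After background subtraction its genotype change was 3.38 (adjusted p 0.0294), against 2.58 in the main fit and 3.26 with total-read scaling alone. With REG replicate 3 as the only REG library its change was 2.20. Skeletal muscle genes had the opposite pattern, with 0 of 22 called, 12 higher in both groups, and medians of 0.28 in MUT and 2.74 in REG. Their summed level was 63.0 to 190 in WT, 128 to 164 in MUT and 136 to 1316 in REG. Without REG replicate 3, 9 of the 22 were called higher.

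No gene was called in the lists of Schwann cell and myelin, meninges, keratinocyte, T and NK cell, neutrophil, erythroid, adipocyte, cytosolic chaperone and interferon-stimulated genes. The keratinocyte median was 1.30 in MUT and −0.31 in REG, with summed levels of 16.9 to 20.01 in WT, 71.1 to 279 in MUT, where Trp63 made up 55.6% to 87.0%, and 10.5 to 12.9 in REG. The neutrophil median was −0.09 in MUT and 1.08 in REG, with summed levels of 245 to 1245 in WT, 458 to 1478 in MUT and 1559 to 3961 in REG. The part of such other cells in the genes called lower was not tested.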

How the data were processed

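RNA of coronal sutures was sequenced on 9 libraries as single reads of 75 cycles, with RNA integrity above 9, per the labels' protocols. Per the submitters' processing notes, STAR 2.6.1d was run against mm10 and Partek was used. How reads were counted, and whether by strand, is not given in the sources used here. A matrix of 43644 values per library was deposited by the authors and was read, from its values, as a signal: gene counts plus 1 read, scaled to a 75th percentile of about 2.76. Matrix columns were matched to the authors' deposited gene table by 4 statistics, which matched for 43644 genes within a relative tolerance of 1e-06. That table also holds the authors' p-value and FDR and their log2 ratio for each pair of groups, used only where named. Gene positions are from it, on GRCm38.

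One fit of all 9 libraries with 3 group means was made with limma 3.58.1 in R 4.3.3 on log2(value + 0.367), the added 0.367 being 1e-06 of the median library total. The 29107 genes that reached 0.367 in 3 libraries or more entered the test. Two-sided p-values were Benjamini-Hochberg adjusted over all of them, and ± after a log2 change is the SE of the fit. A library's lowest value was taken as the worth of 1 read to estimate reads, and background as the median read density of 1747 receptor genes times exon length. Depth limits low values most in MUT, where 1 read is worth up to 0.0998.

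Named genes are Twist1; up to 12 called genes per direction without overlap, at a mean of at least 3.67 on the higher side, with the largest smaller change (Gm, Rik, accession-like, pseudogene, receptor-segment, microRNA and small nucleolar RNA names left out); and the 2 members of smallest p in each of 38 gene lists; 1 gene that this rule names is not reported here. Members, lists and tests were chosen with earlier results of these data known. Lists are described by counts and medians without a set test. On simulated data for Twist1+/- vs WT the fit recovered 0%, 27.5% and 66.5% of 200 genes changed 2-, 4- and 8-fold. It tested 26718, 26745 and 26755 genes and made 0, 2 and 11 false calls. Apart from the changed genes, simulated libraries shared a common mean and normal spread per gene. They held no MUT to REG difference, unequal depth or raised MUT background, so these rates may not hold for the real libraries. Alternatives were other scalings, filters, pseudocounts, models and left-out libraries. The background-subtracted run also scaled each library to its total reads, so it differs from the main fit in both steps. Promoters were matched by symbol to RefSeq. Software was pandas 2.3.3, numpy 2.4.6, scipy 1.17.1 and matplotlib 3.10.9 under Python 3.11.15.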

Additional observations from a re-analysis of the deposited data

Results flagged for a closer look

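The size of the genotype change depended on the Twist1+/- group for 43 named genes, in which the change from WT differed between MUT and REG by the test of REG vs MUT (limma, adjusted p under 0.05, over all genes tested). In all 43 MUT lay farther from WT than REG on average. Over all genes tested that test called 24.8% lower and 11.8% higher in REG, so such a difference is common. The named genes were chosen through a contrast that includes MUT, so their distance from WT in MUT is not independent of that choice. Among matrix genes and their proteases the adjusted p of that difference was 0.000332 for Col16a1, 0.000174 for Col6a2, 0.000175 for Tnn, 0.000239 for Aspn, 0.00149 for Fmod, 0.000709 for Timp2 and 0.00074 for Htra1. For bone and suture genes the adjusted p of that difference was 0.00101 for Pdgfrb, 0.00382 for Prrx1, 0.0021 for Pth1r, 0.00125 for Cdh11, 0.00539 for Dmp1, 0.00188 for Nfatc1, 0.00711 for Runx2, 0.00232 for Alpl and 0.0214 for Alx4. In the signalling and craniosynostosis lists the adjusted p of that difference was 0.00218 for Ski, 0.00129 for Il11ra1, 0.00363 for Tgfb3, 0.00184 for Ltbp2, 0.00846 for Smad6, 0.0075 for Fgfr2, 0.00198 for Erf, 0.0137 for Smo, 0.00196 for Gas1, 0.00401 for Gli3, 0.00141 for Sfrp2, 0.00894 for Wnt7b, 0.00188 for Jag1, 0.00129 for Igfbp5, 0.0134 for Id1 and 0.00187 for Id3. Other genes lower in both groups had an adjusted p of 0.00251 for mt-Co1, 0.00807 for mt-Nd5, 0.00198 for Xbp1, 0.00205 for Jun, 0.032 for Nr4a2, 0.00232 for Nr1d2, 0.0169 for Hk2 and 0.00708 for Malat1. The genes higher in both groups had an adjusted p of 0.00666 for P2rx7, 0.00121 for Rbfox3 and 0.00848 for Pax5. Their changes in each group and the values by library are given above for the genes described there. The 12 lower genes named by rule, Efna4, Efna2, Epha4 and Fgfr3 did not pass this test, which does not show that their changes were equal: Samd1 and Xylt2 changed by −5.40 and −5.48 in MUT and by −2.99 and −2.75 in REG.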

How the results depend on the processing

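The fit on 9 libraries called 1116 genes (857 lower, 259 higher). Counts in total, lower and higher were 1648, 1486 and 162 with trimmed-mean scaling, 828, 373 and 455 with quantile scaling, 1913, 191 and 1722 with total-read scaling, and 421, 77 and 344 after background subtraction. They were 1724, 1408 and 316 with a 10 times stricter filter, 16, 11 and 5 with a pseudocount 10 times lower, 1528, 1289 and 239 with one 10 times higher, 1524, 1071 and 453 with limma's trend, and 7710, 4760 and 2950 with array quality weights. The 2-group fit, the REG libraries alone, MUT replicate 2 as the MUT library and the larger p of both comparisons called 0. The MUT libraries alone called 14112, 6264 and 7848, and REG replicate 3 as the REG library 230, 215 and 15. The median change of all genes was 0.02, and −0.16 with trimmed-mean scaling, 0.64 with total-read scaling, 0.10 after background subtraction and −0.61 with the stricter filter. Leaving out 1 library gave 0 to 4388 calls, 0 to 3047 lower and 0 to 1341 higher. Of the 1116 genes 916, 513, 450 and 268 were called again under the 4 scalings in the order above. Replicate numbers do not pair the groups: same-numbered libraries had correlations of their deviations from −0.20 to 0.10, below the 0.38 of WT replicate 2 with REG replicate 3. With a replicate block 30 genes were called, 28 lower and 2 higher. Twist1 changed in 1 direction under every alternative run; it passed the test with the stricter filter (−2.33), array weights (−2.84) and the MUT libraries alone (−3.26), and leaving out 1 library gave −2.82 to −2.02. None of the named genes changed direction under an alternative, and of 65 named calls 33 were lost with total-read scaling, 48 after background subtraction and 54 with the block. The cause of these shifts was not tested. Depth limits low genes in MUT, where 1 library had 2945636 estimated reads.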

Other observations

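Further gene lists had the following median log2 changes from WT. Endoplasmic reticulum chaperones and unfolded-protein genes, with 1 of 19 called, had −1.97 in MUT and 0.10 in REG. Cytosolic chaperones, with 0 of 12 called, had −1.46 and −0.16. Glycolysis and hypoxia genes, with 1 of 21 called, had −0.76 and −0.02, and immediate early genes, with 2 of 20 called, −1.42 and −0.44. In these 4 lists the REG median lay nearer 0 than the MUT median.

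Pericyte and smooth muscle genes, with 1 of 12 called, had medians of −1.95 in MUT and 0.08 in REG. Schwann cell and myelin genes had −0.65 and −0.71 over 11 genes, of which 6 were lower in both groups, and their summed level was 52.8 to 62.3 in WT, 31.9 to 36.9 in MUT and 31.6 to 45.9 in REG. These summed levels did not overlap between genotypes, although no single gene of the list was called. Meningeal genes had −0.01 and −0.07 over 13 genes. Interferon-stimulated genes had −0.15 and −0.06 over 19 genes.

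T and NK cell genes had medians of 0.66 in MUT and 0.07 in REG over 13 tested genes, erythroid genes 0.17 and 0.38 over 14, and adipocyte genes 0.16 and 0.44 over 12. The neuron and astrocyte list had 1.72 and 0.27 over 15 genes.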
